A study of Cinachyrella cavernosa with 3 samples.

Results

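In the marine demosponge Cinachyrella cf. cavernosa, 146 coding sequences were higher during regeneration than before the wound and had come back below 2 times the before-wound level once regeneration was over. They were taken from 869 coding sequences that could be compared, and the deposited tables list 3229 in all. To be compared, a coding sequence had to be listed at every stage and to reach 20 reads in at least 1 library. It became a member when its scaled read count (reads divided by the library's size factor) was at least 2 times higher during regeneration than before the wound, and less than 2 times higher after regeneration than before it. The members were thus chosen by the same read counts that are described below, and the ratios carry no test.

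Messenger RNA was sequenced from unwounded tissue, from tissue during regeneration and from tissue after it, with 1 library for each stage. All 3 groups were aquarium-kept sponges, and the wounds were cut to resemble the bites of fish; the before-wound tissue is the study's control. The labels say that sponges entered the experiment in triplets, but not how many animals stand behind a library, nor the hours or days between stages. With 1 library per stage nothing here measures the spread between animals, and every interval below covers counting error only.

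Sponges are animals without organs or nerves, whose body is built around water canals lined by flagellated feeding cells, the choanocytes. They are known for rebuilding lost tissue. In demosponges a cut surface is closed by flat covering cells, and mobile amoeboid cells, the archaeocytes, together with choanocytes supply cells for the new tissue. The deposited identifiers carry a CDS number and a Unigene number but no gene name, so no role can be given to any member, and markers of these cell types could not be looked up. In whole tissue, more cells of a type and more RNA per cell cannot be told apart.

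The libraries held 773142 listed reads before the wound, 1062098 during regeneration and 965464 after it. Every count is even, so read pairs appear to enter as 2 reads, and intervals were computed on pairs. Size factors, by the median-of-ratios method, were 0.983, 0.879 and 1.15. The during library therefore has the most reads and the smallest factor. For the 723 compared sequences outside the module, summed scaled counts were 1.00 times the before-wound sum during regeneration and 1.01 times it after regeneration. That sum includes 80 sequences that met the rise limit but stayed at least 2 times above the before level. As a sum those 80 were 9.19 times higher during regeneration. The median ratio of the 723 was 0.783 during over before and 0.888 after over before, so the flat sum does not mean that each stayed level. Membership depends on the scaling: with library totals in place of size factors, 73 sequences met the rule, 70 of them among the 146. The 494 sequences found in the during table alone cannot be members, since the rule needs a count at each stage. The same holds for 76 listed before and during but not after, and for 312 listed during and after but not before.

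The members held a large part of the listed reads while the sponge regenerated. Their share of listed reads was 20.4% before the wound, with an exact binomial 95% interval of 20.2 to 20.5. It was 51.4% in regenerating tissue (51.3 to 51.5) and 27.3% in tissue after regeneration (27.2 to 27.4). The 4 most abundant members carried most of this, with 15.3% before the wound, 42.4% during regeneration and 21.9% after it. The other 142 took 5.03%, 9.04% and 5.41% at the same stages. In scaled counts the whole module was 3.88 times higher during regeneration than before the wound, and the 142 alone were 2.76 times higher. The choice of members sets these shares. With library totals the members held 6.75%, 30.6% and 8.55% of reads at the 3 stages. The 330-base and 351-base sequences among the leading 4 then missed the rise limit, and are among the 76 members lost. With the return limit at 1.5 times they held 6.75%, 15.8% and 6.84%. The 300-base, 330-base and 351-base sequences among the leading 4, at 1.52, 1.58 and 1.67 times after over before, were then left out. After regeneration the sums of scaled counts were 1.43 times the before-wound level for all members and 1.14 times for the 142.

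**Figure D1:**
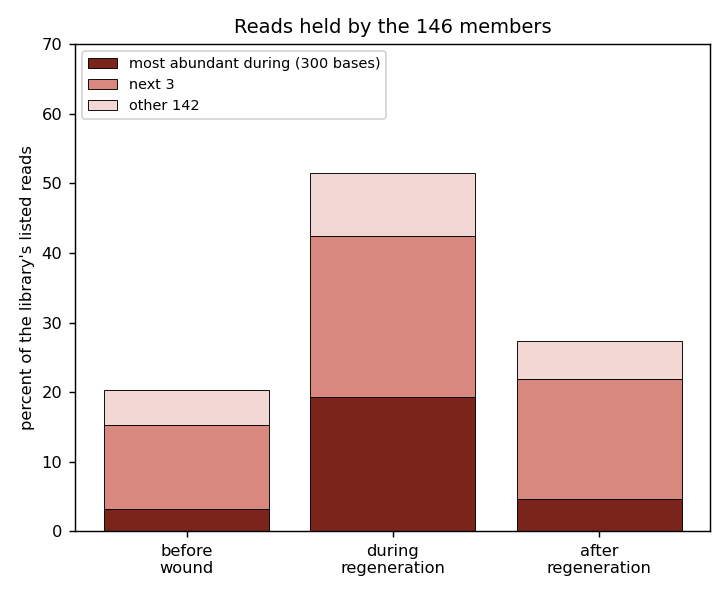
Percent of each library's listed reads (vertical axis) held by the 146 members at the 3 stages, 1 library per stage. Dark red is the 300-base sequence that led during regeneration, mid red the next 3 and pale red the other 142; the stacks reach 20.4%, 51.4% and 27.3%.

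One sequence dominated. CDS_41997_Unigene_65739, 300 bases long, had 25226 reads before the wound, 204380 during regeneration and 44986 after it. It ranked 7th, 1st and 7th among all listed sequences at these stages. It took 3.26% of reads before the wound, 19.2% during regeneration and 4.66% afterwards. In scaled counts it was 9.06 times higher during regeneration than before the wound (95% counting interval 8.89 to 9.23), and 0.168 times the during level after regeneration (0.165 to 0.170). Against its before-wound level it still stood at 1.52 times after regeneration (1.49 to 1.55). Without it the other 145 members had 17.1%, 32.2% and 22.6% of the reads at the 3 stages.

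The next 3 in abundance followed different courses. CDS_47465_Unigene_74294, with 363 bases, had 20754 reads before the wound, 94460 during regeneration and 28894 after it. It was 5.09 times higher during regeneration than before (4.98 to 5.20) and then close to its starting level, at 1.19 times (1.16 to 1.22). The deposited FPKM values (fragments per coding length and library depth, as the authors computed them) kept about 46.0%, 49.6% and 56.4% of its read pairs at the 3 stages, so its reads may be shared with other sequences, which was not tested. A 330-base sequence had 44520 reads before the wound, 92596 during regeneration and 82502 afterwards, at 2.33 times the before level during regeneration and 1.58 times after it. A 351-base sequence had 28108, 58610 and 54946 reads, at 2.33 times and 1.67 times. In at least 1 library FPKM kept under 90% of its pairs, so its reads too may be shared, which was not tested. The 330-base and 351-base sequences were thus higher during regeneration by little more than the threshold and stayed well above the starting level. As a share of listed reads the 351-base sequence stood at 5.69% after regeneration and 5.52% during it, so its direction after regeneration turns with the scaling. Next by reads came a 549-base sequence with 8564, 19656 and 13330 reads, at 2.57 times the before level during regeneration and 1.33 times after it.

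**Figure D2:**
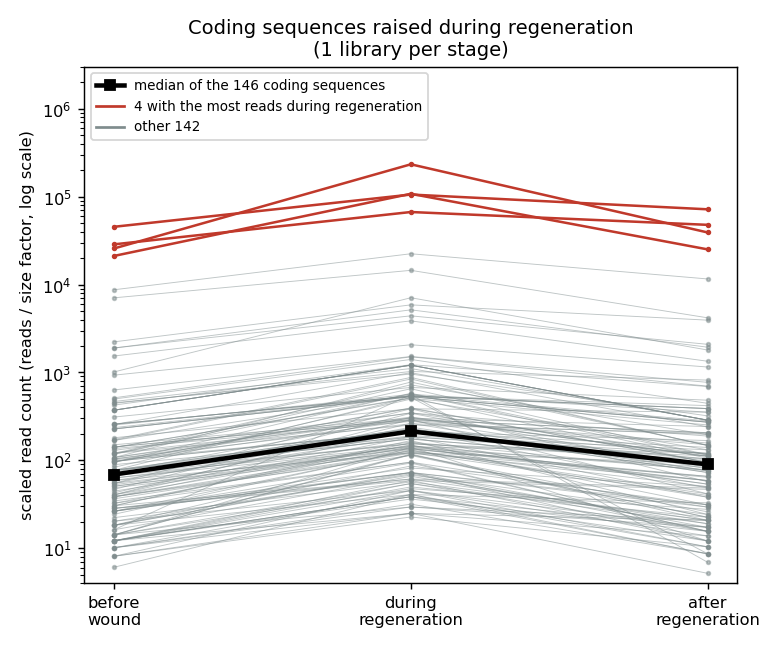
Scaled read count of each of the 146 members (vertical axis, log scale) before the wound, during regeneration and after it, 1 library per stage. Each thin line is a coding sequence, the red lines are the 4 most abundant during regeneration, and the black squares are the median, at 69.2, 214 and 90.2.

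Below these, most members were of moderate or low abundance. The median member had 68 reads before the wound, 188 during regeneration and 104 after it, and 90 of the 146 (61.6%) had under 100 reads before the wound, against 45.8% of all compared sequences. At least 1000 reads during regeneration were found for 21 members (14.4%), against 7.48% of all compared sequences; the rule favours both. The median ratio was 2.97 during regeneration over before, 1.27 after over before and 0.365 after over during. Across all 869 compared sequences these medians were 0.985, 0.962 and 1.05. Rises were mostly modest: 76 members were 2 to under 3 times higher during regeneration, 30 were 3 to under 4 times higher, 35 were 4 to under 8 times higher and 5 were at least 8 times higher. Of all compared sequences 26.0% were at least 2 times higher during regeneration, 9.67% at least 4 times and 2.07% at least 8 times. The rule used this contrast, so the members' counts are not read against these shares.

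The highest ratio belonged to a rare sequence. CDS_715_Unigene_1122, 297 bases long, had 16 reads before the wound, 492 during regeneration and 8 after it. It was 34.4 times higher during regeneration than before (17.2 to 80.5), and after regeneration it was 0.0124 times its during level (0.00335 to 0.0321). It ranked 1597th of the listed sequences before the wound, 139th during regeneration and 2058th after it. CDS_888_Unigene_1378, with 300 bases, had 14, 124 and 14 reads, a ratio of 9.90 during over before (4.53 to 25.7), and was again at 0.853 times its before level after regeneration (0.255 to 2.85). A 417-base sequence had 14, 104 and 24 reads, and a 420-base sequence had 14, 102 and 26. Their ratios of 8.31 and 8.15 during over before had wide intervals, from 3.76 to 21.7 and from 3.68 to 21.3. All 4 of these started from under 20 reads.

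The lowest ratios of after over during belonged to a pair of sequences, one of them the 297-base sequence. CDS_1053_Unigene_1630, with 384 bases, had 76 reads before the wound, 458 during regeneration and 10 after it. After regeneration it was 0.0166 times its during level (0.00535 to 0.0394) and 0.112 times its before-wound level (0.0345 to 0.285). It and the 297-base sequence above were the only members more than 50 times lower after regeneration than during it. The next was the 300-base sequence with 124 reads during, at 0.0861 (0.0332 to 0.188), followed by a 387-base sequence with 40, 256 and 48 reads, at 0.143, and a 528-base sequence with 30, 148 and 28 reads, at 0.144. At every stage FPKM kept at least 96.9% of the pairs of these 5 sequences.

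**Figure D3:**
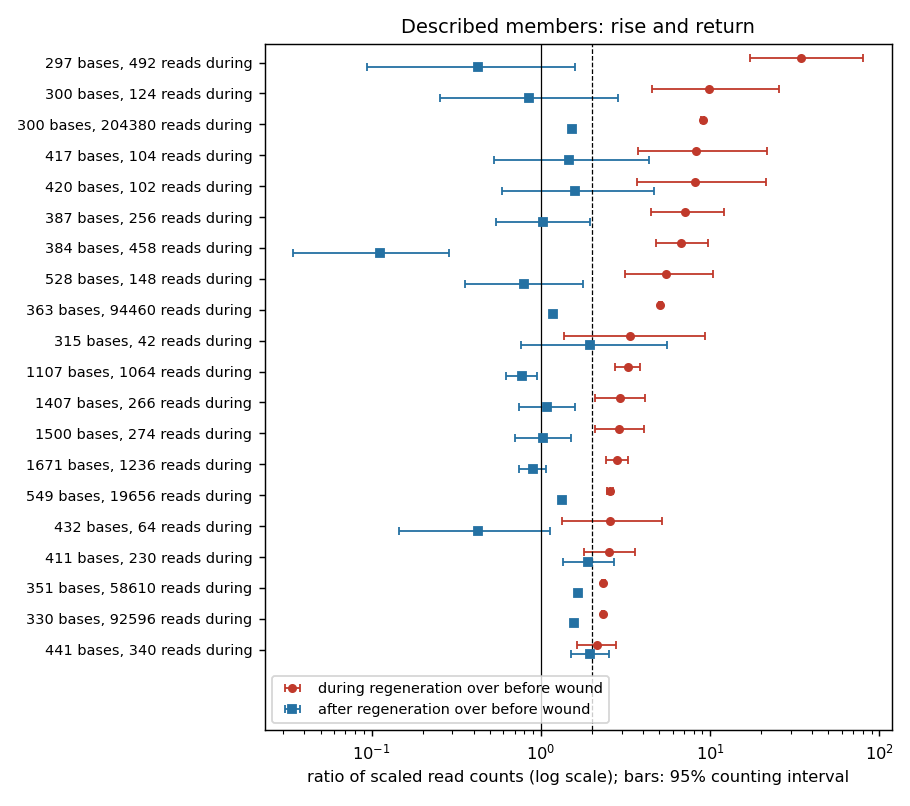
Ratio of scaled read counts over the before-wound library (horizontal axis, log scale) for 20 described members, during regeneration (red circles) and after regeneration (blue squares), with 95% counting intervals as bars. The solid line marks a ratio of 1 and the dashed line the rule's limit of 2; intervals are narrow for the 5 abundant sequences and wide for those with few reads.

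How far the members came back varied. After regeneration 45 of the 146 were below their before-wound level, against 52.0% of all compared sequences, and 4 of these were at least 2 times lower, against 14.8%. Another 51 lay from 1 to under 1.5 times the before level, and 50 from 1.5 to under 2 times, a band that held 14.2% of all compared sequences. The median member had lost 88.0% of its rise by the end of regeneration, and 16 members had lost under 50% of it. For the 70 members with a rise of at least 3 times, the return limit alone forces a loss of over 50%. These losses are therefore largely set by the rule. After regeneration 95 members were at least 2 times lower than during it, against 19.2% of all compared sequences, and 41 were at least 4 times lower, against 6.10%. The rule sets the direction of this last contrast for every member, so these counts too are description.

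Counting error limits the picture for part of the module. The 95% counting interval of the ratio during over before lay above 1 for 138 of the 146 members, against 32.6% of all compared sequences. That of after over during lay below 1 for 127 members, against 30.0%. For 96 members the interval of after over before included 1, against 40.4%. All 3 conditions were met by 82 members (56.2%), against 11.9% of all compared sequences. The same counts chose the members and give these intervals, so nothing is read from the difference in shares. An interval that includes 1 can also be wide, as that of CDS_888_Unigene_1378 above, and does not show a full return. A further 39 members were still above their before-wound level after regeneration by this measure, against 27.5%, with ratios up to 1.95. The remaining 11 members with an interval off 1 were below that level, against 32.1% of compared sequences.

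For 19 members the fall after regeneration lay within counting error, against 39.9% of compared sequences whose interval for that contrast included 1. They were among the rarer ones, with 20 to 340 reads during regeneration and a median of 52, and their ratios of after over during ran from 0.429 to 0.915. A 441-base sequence with 178 reads before the wound, 340 during regeneration and 408 after it was the most abundant of them. It was 2.14 times higher during regeneration than before (1.64 to 2.79) and still 1.95 times higher afterwards (1.52 to 2.54), the highest return ratio of any member. A 315-base sequence with 14, 42 and 32 reads, also among the 19, had the next highest return ratio of all members, at 1.95 times. A 411-base sequence with 102, 230 and 228 reads followed at 1.91 times, tied with a 432-base sequence of 68, 168 and 152 reads. Both of the tied sequences had an interval below 1 for after over during, so they are not among the 19. All 21 members with at least 1000 reads during regeneration had an interval below 1 for after over during. The rule holds that ratio below 1 for every member, and more reads narrow the interval. Neither this result nor the low counts of the 19 is therefore read as a difference between abundant and rare members.

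**Figure D4:**
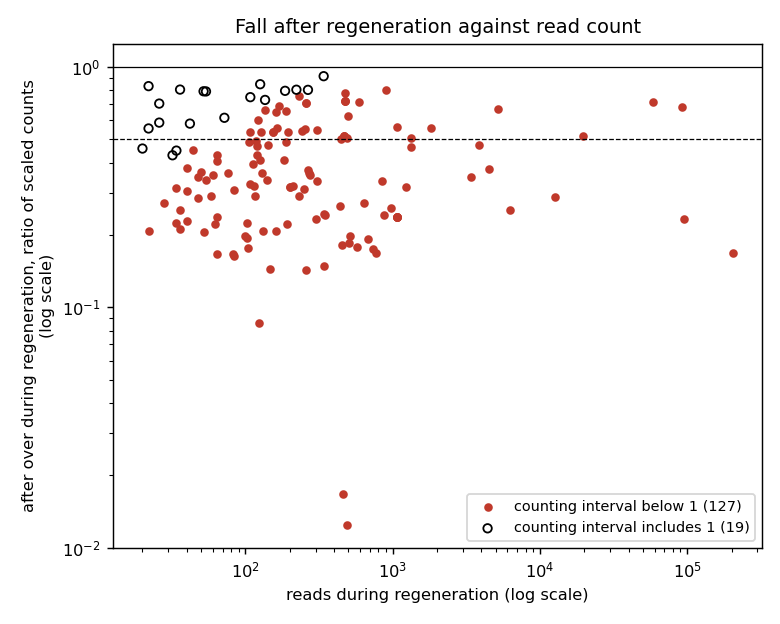
Ratio of scaled counts after over during regeneration (vertical axis, log scale) against reads during regeneration (horizontal axis, log scale) for the 146 members. Filled red points have a 95% counting interval below 1 (127 members) and open points one that includes 1 (19 members, all with at most 340 reads during regeneration); the dashed line marks a ratio of 0.5.

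The 11 members whose interval of after over before lay wholly below 1 had 452 to 12734 reads during regeneration, with a median of 1064 against 188 over all members. More reads give a narrower interval, so this grouping favours abundant members and nothing is read from that contrast. The 11 comprise 7 distinct count profiles, since 5 of them are copies with identical counts. Each copy had 1064 reads during regeneration, so the copies set the median. The most abundant was a 474-base sequence with 6934 reads before the wound, 12734 during regeneration and 4818 after it, at 2.05 times the before level during regeneration and 0.592 times after it (0.562 to 0.624). A 483-base sequence with 460, 974 and 332 reads ended at 0.615 times (0.501 to 0.755). The 432-base sequence with 28, 64 and 14 reads tied with the 297-base sequence for the second lowest return ratio, at 0.426, but its interval of 0.146 to 1.13 included 1, as did that of the 297-base sequence (0.0939 to 1.59).

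The 40 members at least 4 times higher during regeneration had a median ratio of 1.33 after over before, and the 106 with a smaller rise had 1.25. Their medians of after over during were 0.226 and 0.490. The rule and this grouping together hold after over during below 0.5 for each of the 40. The 10 members with at least 1000 reads before the wound had a median rise of 2.54 times, the 46 with 100 to under 1000 reads 2.59 times and the 90 with fewer reads 3.17 times. In the last comparison the before-wound count is part of both the ratio and the grouping, and the rarest class has the widest intervals, so no trend is read from these medians.

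**Figure D5:**
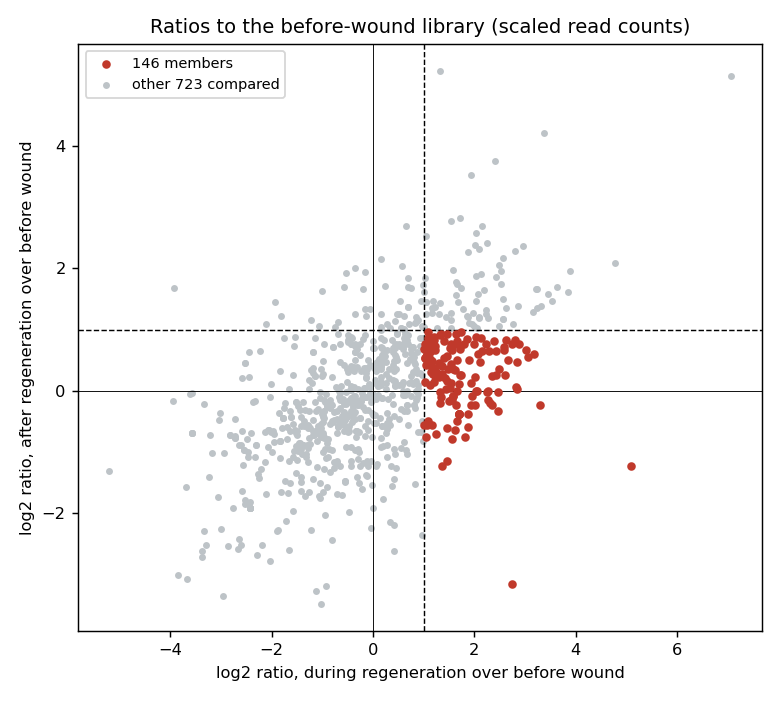
Log2 ratio of scaled counts during regeneration over before the wound (horizontal axis) against after regeneration over before the wound (vertical axis) for the 869 compared sequences, with the 146 members in red and the other 723 in grey. Dashed lines mark the 2-fold limits of the rule at a log2 ratio of 1; the members fill the lower right field. The member farthest to the right is the 297-base sequence and the lowest member is the 384-base one, the 2 with the lowest ratios of after over during.

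Some members could not be told apart by their counts. In 6 sets, 17 members shared their length and their counts in every library with another member, and counting each set once left 135 members. The largest set had 5 sequences of 1107 bases, each with 366 reads before the wound, 1064 during regeneration and 330 after it. They were 3.25 times higher during regeneration than before (2.74 to 3.87) and ended at 0.769 times the before level (0.619 to 0.954). FPKM gave each of the 5 the values 111, 153 and 51.1, and kept about 19.5%, 12.9% and 12.4% of the pairs of 1 of them. The 2 sets of 3 had lengths of 435 and 465 bases. The 435-base copies had 254, 474 and 448 reads each, and the 465-base copies 224, 466 and 314. FPKM kept about 33% of the pairs of each of these copies at every stage, and about 50% in the sets of 2. Sums and shares of reads count every copy in full, and whether copies share the same pairs was not tested. Sharing of counts was about as common among the members, at 11.6%, as among all compared sequences, at 10.1%.

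Members also stood next to each other by identifier. In 3 places 7 members had consecutive Unigene numbers, in a run of 3 and in 2 pairs. The run of 3 held the longest member, a 1671-base sequence with 490 reads before the wound, 1236 during regeneration and 514 after it. Beside it stood a 918-base sequence with 444, 844 and 370 reads and a 1272-base sequence with 118, 636 and 226. Their ratios during over before were 2.82, 2.13 and 6.03. On deposited FPKM the 1671-base sequence had 83.0 before the wound, 519 during regeneration and 214 after it. The 918-base one had 767, 663 and 370, lower during regeneration than before, and the 1272-base one was listed at 0 at all 3 stages. Read counts and FPKM thus place the rise differently among the 3, and whether they share reads was not tested. A pair of 1407 and 1500 bases had 102, 266 and 130 reads and 106, 274 and 128 reads, at 2.92 and 2.89 times. Of the members 11 (7.53%) had a compared sequence at the next number on either side, against 80 (9.21%) of all 869 compared sequences. The 4 such neighbours outside the module had ratios during over before of 0.556, 0.875, 1.54 and 1.85.

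The members' median length was 385.5 bases, against 381 over all compared sequences, and 77 of 146 (52.7%) were under 400 bases, against 57.4%. Lengths are multiples of 3 throughout and are coding lengths. Sequences of at least 1000 bases made up 8.90% of members and 3.32% of the other 723 compared. With 1 sequence per set of identical counts the shares were 6.67% (9 of 135) and 3.37% (23 of 683). Coding sequences are not independent samples, and no test was run. The 13 long members were 3.03 times higher during regeneration as a sum, and 0.980 times the before level after it. That sum counts each of the 5 identical 1107-base copies, which ended at 0.769 times the before level. After regeneration 6 of the 13 were below the before level, and these copies are 5 of the 6. The sum with 1 sequence per set was not computed, so no return below the before level is read from it.

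The 80 sequences that met the same limit during regeneration but stayed at least 2 times above the before level are the closest group for comparison. Members had more reads before the wound, with a median of 68 against 35, and smaller rises, with a median of 2.97 times against 4.14 times. At least 4-fold rises were seen in 27.4% of members and 55.0% of the 80. Their median lengths were 385.5 and 370.5 bases. The limit on the after level separates the groups, and the same before-wound library enters every ratio, so the differences are given without a test. Just inside the rise limit lay a 306-base member with 148, 266 and 280 reads at 2.01 times and a 300-base member with 30, 54 and 24 reads, also at 2.01. Just outside it lay a 312-base sequence with 18, 32 and 12 reads at 1.99 and another of 312 bases with 84, 148 and 70 reads at 1.97. At the limit on return, the members at 1.95 stood next to a 432-base sequence with 42, 156 and 100 reads and a 348-base sequence with 42, 90 and 100 reads, both at 2.03.

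Deposited FPKM values gave a second view of the same reads. In 94 of the 146 members (64.4%) FPKM kept 90% or more of the pairs at every stage, against 65.8% of all compared sequences, and 6 members were listed with an FPKM of 0 at some stage. Of the 140 with values, 127 were at least 2 times higher during regeneration once FPKM was divided by its own size factors, and 121 met the whole rule, against 25.0% and 15.5% of the 849 compared sequences with values. On FPKM as deposited 51 of the 140 were at least 2 times higher, against 12.4%. FPKM comes from the same reads that chose the members, so nothing is read from how far these counts exceed the shares. FPKM and library totals divide by all reads, including those of the dominant sequences. With library totals the median log2 ratio of the 869 compared sequences moved to -0.64 for during over before, -0.15 for after over before and 0.60 for after over during. All 146 members were still higher during regeneration than before on that scale, by at least 1.31 times. A change of scale multiplies every ratio of a contrast by the same factor, so the rise limit of 2 fixed that result in advance. Only 70 kept their membership, and 22 of the 146 were no longer lower after regeneration than during it.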

How the data were processed

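The authors deposited 1 table per library with a read count, a coding length and an FPKM value for each coding sequence, per the file headers. Per the submitters' processing notes, which give no versions, the tools included Trimmomatic, FastQC and RSEM. Which assembler, aligner and listing rule were used was not given in the sources used here. Libraries were made with a stranded mRNA kit from TRIzol-isolated RNA, per the labels' protocols. Unlisted sequences were not read as 0. Read counts were divided by median-of-ratios size factors from the 887 sequences listed in all 3 libraries (Python 3.11.15, scipy 1.17.1; edgeR 4.0.16 in R 4.3.3 gave TMM factors as an alternative). Ratios use no pseudocount and carry exact conditional binomial 95% intervals on read pairs; shares carry Clopper-Pearson intervals. Pairs kept by FPKM were estimated from the 0.2 quantile of pairs over FPKM among 51 neighbours in length and are approximate. With 1 library per stage no test or p-value is possible. Described members are those highest or lowest in ratio, with most reads or bases, nearest the limits, or in the largest identical set; any other described was chosen after its values were seen. The members and lists were chosen with earlier results of these data known.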

Additional observations from a re-analysis of the deposited data

How the results depend on the processing

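With 1 library per stage no library could be left out. No paired analysis was possible because each stage has a single library. The rule gave 146 members, against 73 with library totals, 54 with deposited FPKM, 70 with a rise of at least 3 times, 96 with after under 1.5 times before, 94 among sequences whose FPKM keeps at least 90% of pairs and 495 with unlisted sequences read as 0. The 6 other settings kept the count within 1.5 times, at 108 to 151, as did the 138 whose counting interval lay above 1. With library totals the members' medians were 2.70 during over before and 1.13 after over before, 14 were at least 4 times higher during regeneration, 9 at least 4 times lower after it and 29 below the before level; with deposited FPKM these 3 counts were 13, 7 and 13. A rise of at least 3 times gave medians of 4.17 during over before and 0.242 after over during, with 27 below the before level; after under 1.5 times before gave 1.04 after over before and 0.317 after over during, with 24 at least 4 times higher during; the FPKM 90% limit gave 25 at least 4 times lower after and 24 below. Shares of reads before, during and after were 6.75%, 30.6% and 8.55% with library totals, 6.42%, 29.8% and 8.27% with deposited FPKM, 6.73%, 30.5% and 8.51% with a rise of at least 3 times, 6.75%, 15.8% and 6.84% with after under 1.5 times, 12.9%, 34.9% and 17.5% with the 90% limit and 20.02%, 50.8% and 27.0% with 1 sequence per identical set. TMM factors gave 20.5% before and 51.6% during, FPKM with its own factors 51.02% during and 27.5% after, and a minimum of 100 reads 51.2% during. Library totals and FPKM shift the median of all sequences, and stricter limits admit fewer by construction. All 146 members stayed higher during than before with each scaling of reads. Such a scaling multiplies every ratio of a contrast alike, so the rise limit fixed that result. On deposited FPKM 138 of 140 stayed higher. After regeneration 124 of the 146 stayed below the during level with library totals. On deposited FPKM 111 of 140 did, and 138 of 140 on FPKM with its own factors.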
